A study of Bos grunniens and Bos taurus with 11 samples.

Results

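The comparison of yak at 5000 m with lowland cattle rests on 5 of the 11 small RNA libraries of the study, 3 from yak lung (T3) and 2 from cattle lung (CON). The members were taken by the group and altitude that the labels give, and every miRNA name listed for these libraries was followed. The T3 animals were adult male yaks, the bovine native to the Tibetan Plateau, living at 5000 m. The CON animals were adult male Zaosheng cattle, a lowland breed, living at 1500 m. The animals were healthy, and each library came from a separate animal. The 6 other yak libraries, from 3400 m (T1, 3 animals) and 4200 m (T2, 3 animals), share the model that estimates the spread and show where T3 stands among yaks. The comparison addresses which lung miRNAs differ between yak from the highest site and cattle from the lowland. Species and altitude differ together in it and cannot be told apart.

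MicroRNAs (miRNAs) are short RNAs cut from the arms of a hairpin-shaped precursor. The mature strand from the front arm is called 5p and that from the back arm 3p, and usually 1 strand is kept while its partner is degraded. The kept strand guides a silencing complex to messenger RNAs that it pairs with, which lowers their translation or stability. In lung, miRNAs act in vessel growth, epithelial differentiation and the response to low oxygen.

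The tables listed 1377 names, of which 1046 were predictions from the reads of the study and 331 carried the prefix of a plant or moss species. Predicted names are given here by their number and arm, such as m0552-3p. The reference genome named in the study's methods is that of yak. Whether this lowered the level of any predicted name in cattle was not tested. No listed name matched a list of well-known lung, blood or hypoxia miRNAs (miR-126, miR-34b, miR-34c, miR-449a, miR-210, miR-451, miR-486, miR-223, miR-21 and let-7), so the lung origin of the RNA could not be checked by name. What a predicted miRNA pairs with is not known from the tables, and no function is given for it here. Levels are in RPM, reads per 1000000 reads that the tables assign to any listed name. In bulk tissue a lower level may come from fewer cells of a type or from less of the RNA per cell, and these cannot be told apart.

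The libraries held 2428001 reads in CON 1, 2927856 in CON 2, 1744433 in T3 1, 1849522 in T3 2 and 2446991 in T3 3. A single read was therefore worth between 0.342 RPM in CON 2 and 0.573 RPM in T3 1. Values were fitted with limma on log2(RPM + 1), so folds of low names are understated. The test covered the 310 names that averaged 1 RPM or more over the 11 libraries, of which 255 were predicted and 55 plant-prefixed.

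Some libraries stood apart from their group. CON 1 held 28 plant-prefixed names with at least 1 read, against 110 in CON 2 and 109, 107 and 108 in the T3 libraries. The yak library T2 2 held 19. In the study's quality summary, CON 1 and T2 2 also had the lowest shares of high-quality bases in their raw small RNA reads. Whether this bears on the plant-prefixed names was not tested. T3 1 and T3 2 had a composition unlike that of T3 3. The most abundant name, m1080-5p, took 12.8% of the reads in T3 1 and 10.1% in T3 2, against 58.3% in T3 3, 46.5% in CON 1 and 64.5% in CON 2. The name m1355-5p reached 347993 RPM in T3 1 and 290054 RPM in T3 2, against 42106 RPM in T3 3, 56398 RPM in CON 1 and 39617 RPM in CON 2. T1 1, from 3400 m, had the composition of T3 1 and T3 2, with m1355-5p at 289724 RPM, so this composition was not limited to 5000 m. In the study's quality summary, T3 1, T3 2 and T1 1 kept the largest shares of clean small RNA reads. The animals of T3 1 and T3 2 had the lowest mapped shares in the study's mRNA data. Whether sample quality bears on the composition was not tested.

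**Figure D1:**
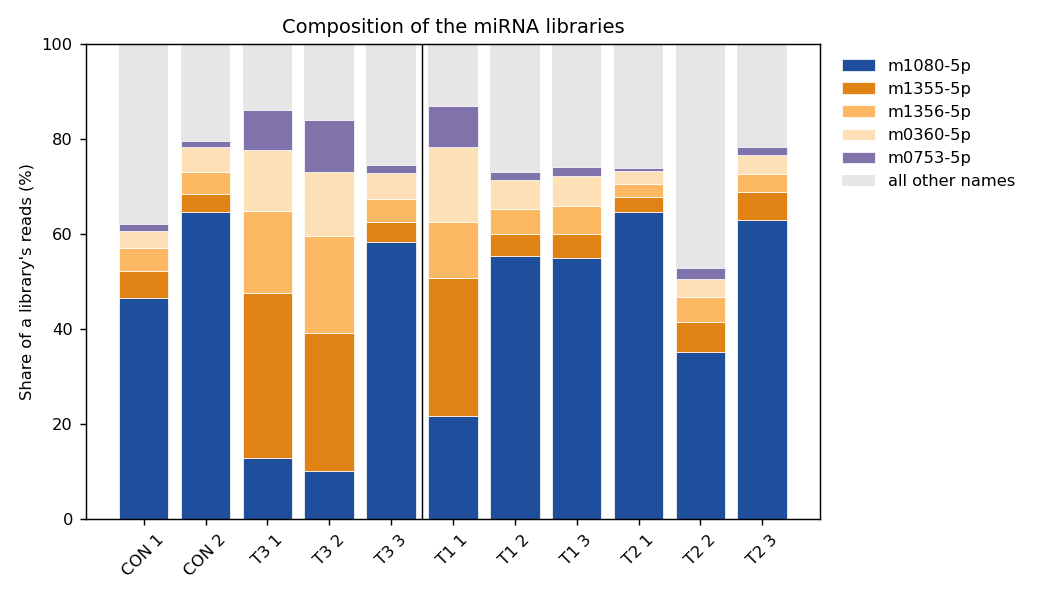
Share of each library's reads (%, vertical axis) taken by the 5 most abundant names, stacked, with all other names in grey. The line separates the 5 libraries compared from the other yak libraries. T3 1 and T3 2 hold 12.8% and 10.1% m1080-5p, and T3 3 holds 58.3%.

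Several other abundant names divided T3 in the same way. The level of m1356-5p was 172214 and 205567 RPM in T3 1 and T3 2, and 48343 RPM in T3 3. In cattle m1356-5p stood at 49180 and 44973 RPM, on either side of T3 3. The level of m0380-3p went the other way, with 3457 and 6161 RPM in T3 1 and T3 2, 37264 RPM in T3 3, and 37696 and 29776 RPM in cattle. Of the 10 most abundant names, m0753-5p was the one whose T3 libraries all lay above cattle with an unadjusted p under 0.05, with 84618, 111156 and 16230 RPM against 14638 and 13146 RPM. T3 3 was only slightly above the cattle libraries for that name, and the adjusted p of limma was 0.293. None of the 10 was called, although limma without a filter on low names called m1080-5p (adjusted p = 0.0400). The T3 libraries of m1358-5p and m0867-5p, also among the 10, showed no such division.

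Over all 310 tested names, T3 1 and T3 2 differed by a median of 0.44 on the log2 scale, and T3 3 differed from their mean by 1.19. T3 3 differed from the cattle mean by 0.73, while the mean of T3 1 and T3 2 differed from it by 1.64. Of 215 names at which T3 1 and T3 2 together were at least 2-fold from cattle, T3 3 lay nearer to cattle at 133 and nearer to the other T3 libraries at 82. Spearman's rho across the 310 names, which are not independent replicates, was 0.915 between T3 1 and T3 2, 0.761 between T3 1 and T3 3, and 0.880 between T3 3 and CON 2. T1 1 correlated with T3 1 at 0.891. These values describe the libraries and carry no test.

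**Figure D2:**
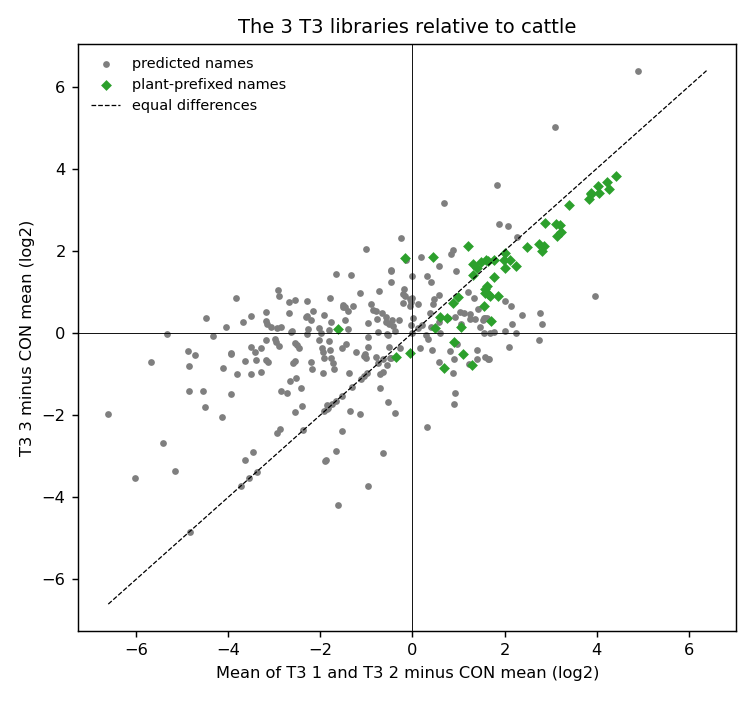
For each tested name, the log2(RPM + 1) of T3 3 minus the cattle mean (vertical axis) against that of the mean of T3 1 and T3 2 (horizontal axis). Many predicted names lie far from 0 on the horizontal axis and near 0 on the vertical one, and 133 of the 215 names at least 2-fold from cattle in T3 1 and T3 2 lie nearer to cattle in T3 3.

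Measures of whole libraries were compared next. With 3 against 2 libraries there are 10 assignments, and the smallest p an exact permutation test allows is 0.1. The share of m1080-5p was 27.0 ± 27.1% in T3 (SD, n = 3) and 55.5 ± 12.8% in CON (SD, n = 2), with a two-sided exact permutation p of 0.3. Predicted 5p strands held 90.8 ± 3.65% of the reads in T3 (SD, n = 3) and 83.5 ± 8.45% in CON (SD, n = 2), also at an exact permutation p of 0.3. The number of names detected was 376, 414 and 424 in T3 and 377 and 428 in CON, and the ranges overlapped. The share of plant-prefixed names was 0.219 ± 0.0519% in T3 (SD, n = 3) and 0.0928 ± 0.0866% in CON (SD, n = 2), at the smallest exact permutation p of 0.1 and 0.45 after adjustment over 6 measures.

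Between T3 and CON, 1 name of 310 was called (0.323%), a call being a difference of 2-fold or more whose adjusted p was under 0.05. The call was m0552-3p, a predicted 3p strand that was far higher in yak at 5000 m. Without adjustment, at p under 0.05 and at least 2-fold, 12 names (3.87%) were higher and 33 (10.6%) were lower in T3. The 3 T3 libraries all lay above both cattle libraries at 55 names (17.7%) and all below at 52 names (16.8%). The median difference over the 310 names was -0.37 on the log2 scale, with 139 names higher and 170 lower. That median was 0.13 with RLE scaling and 0.11 with TMM scaling, and the 12 higher and 33 lower names became 31 and 27 with RLE scaling and 20 and 21 with TMM scaling.

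**Figure D3:**
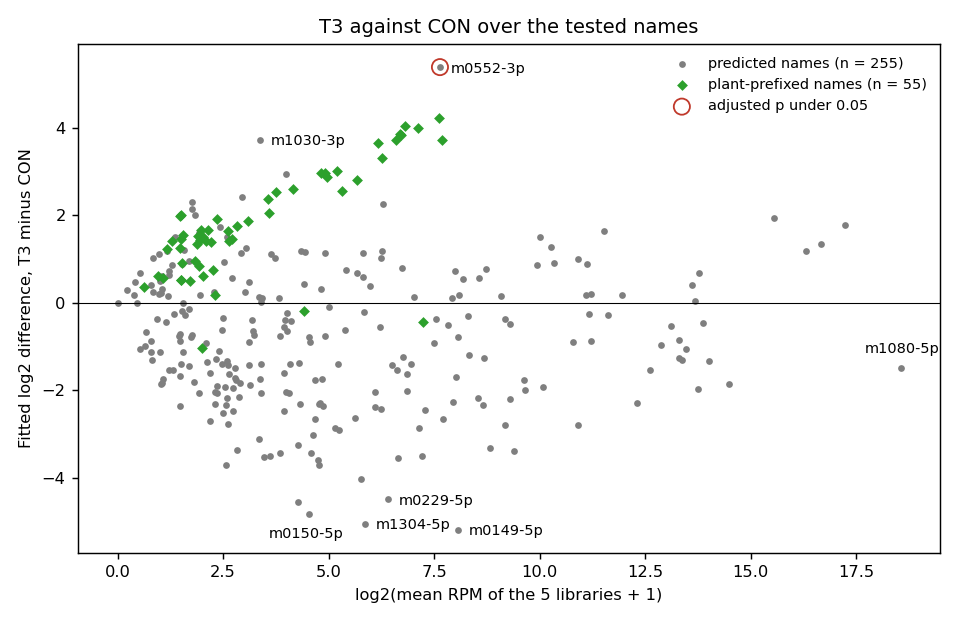
Fitted log2 difference, T3 minus CON (vertical axis), against the mean level of the 5 libraries (horizontal axis, log2 of RPM + 1) for 255 predicted names (grey) and 55 plant-prefixed names (green). The circle marks m0552-3p, the single call, and 52 of the 55 plant-prefixed names lie above 0.

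The level of m0552-3p was 3.29 RPM in CON 1 and 9.90 RPM in CON 2, from 8 and 29 reads. It was 198 RPM in T3 1, 208 RPM in T3 2 and 572 RPM in T3 3, from 345, 385 and 1399 reads. The groups did not overlap, and the lowest T3 library was far above the higher cattle library. The means were 326 ± 213 RPM in T3 (SD, n = 3) and 6.60 ± 4.67 RPM in CON (SD, n = 2), a ratio of 49.4. That ratio was 32.9 without CON 1, 98.9 without CON 2 and 30.8 without T3 3. The log2 difference was 5.39 with a standard error of 0.97, a 95% interval from 3.33 to 7.46 and a limma adjusted p of 0.0164. Within T3, m0552-3p was highest in T3 3. The difference was 5.71 for T1 (adjusted p of 0.00889 by limma) and 5.82 for T2 (0.00727), 2 comparisons that share the cattle libraries. In T2 1 it was at 156 RPM, the lowest yak value, and in T2 2 at 994 RPM, the highest. Among yaks, T3 differed from the mean of T1 and T2 by -0.37 (limma adjusted p = 0.848). In alternative fits its log2 difference lay between 4.19 and 6.07, and it was called in 13 of 19. It was no longer called without CON 1 or without T3 1 or T3 2, among other settings.

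The partner strand of the same precursor, m0552-5p, stood at 18.5 and 96.3 RPM in cattle. In T3 it was at 0, 2.70 and 11.4 RPM, below both cattle libraries. The log2 difference was -3.60 with a standard error of 1.75, and the limma adjusted p was 0.293. The strands of this precursor thus had opposite signs. The 5p strand made up 84.9% and 90.7% of the precursor's reads in CON 1 and CON 2, and 0%, 1.28% and 1.96% in T3. The log2 ratio of 5p to 3p was lower in T3 by a difference of -8.998 with a standard error of 1.47, at a limma adjusted p of 0.00359. A ratio within a library moves with the scaling of that library only through the 1 RPM added to each strand. That addition matters where a strand is at or near 0, as m0552-5p is in T3. The difference was -10.5 with a pseudocount of 0.1 and -6.17 with a pseudocount of 10, and it was called in both. In the other yaks the 5p share ran from 0% in T1 1 to 20.3% in T1 3, below both cattle libraries in each of the 6. Most cattle reads of this precursor were thus named to its 5p strand and most yak reads to its 3p strand, at 5000 m and at both lower sites.

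Of 190 predicted precursors with both arms listed, 82 had enough reads in both for the arm ratio to be tested. The ratio was called at 3 of these, 3.66%, with a higher 5p share in T3 at 1 and a lower one at 2. The precursor m0064 had almost only 5p reads in every library, 99.6% and 99.7% in cattle against 100%, 100% and 99.96% in T3, and its log2 ratio was higher in T3 by 4.02 (standard error 0.99, limma adjusted p = 0.0395). Its 5p strand was at 17124 and 6047 RPM in cattle and 8227, 6428 and 6664 RPM in T3, and these ranges overlapped. The ratio of m0064 therefore differed through its minor 3p strand. That strand had 0 reads in T3 1 and T3 2, where the ratio depends on the pseudocount. The ratio of m0064 was not called with a pseudocount of 10, with the 5 libraries alone or without T3 1 or T3 2. The call of m0150 (log2 -3.72, limma adjusted p = 0.0258) came from a precursor with 0 reads of either strand in the 3 T3 libraries, where the ratio is that of the pseudocounts. Without adjustment 9 precursors had a higher and 5 a lower 5p share in T3. The median difference of the log2 ratio over the 82 was -0.03, with 39 precursors above 0 and 43 below. With T3 3 left out 11 precursors were called, and with CON 2 left out 0 were called by limma.

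Among the names higher in T3, several were at 0 reads in both cattle libraries. The strand m1030-3p had 0 reads in CON 1 and CON 2, and 18, 10 and 77 reads in T3, or 10.3, 5.41 and 31.5 RPM. It was at least 13.9-fold higher in T3, against a floor of 3 reads in each cattle library, or at least 6.96-fold without T3 3, and the limma adjusted p was 0.143. Its partner m1030-5p was also at 0 in cattle, with 1.15, 5.41 and 5.31 RPM in T3, at least 3.5-fold higher. Both strands of this precursor were present in each of the 6 other yak libraries, where m1030-3p ranged from 9.77 to 83.7 RPM. The strand m0786-3p had 0 reads in cattle and 3.44, 4.33 and 4.09 RPM in T3, at least 3.5-fold higher, while its abundant partner m0786-5p overlapped between the groups. The name m1030-3p was the only one of all listed names with at least 10 reads in each T3 library and 0 reads in both cattle libraries.

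The strand m1068-5p was present in both groups. It was at 14.8 and 31.8 RPM in cattle and 72.2, 125.4 and 138.5 RPM in T3. The T3 libraries all lay above cattle, with a ratio of means of 4.81, a log2 difference of 2.26 (standard error 0.89) and a limma adjusted p of 0.293. In the other yaks m1068-5p ranged from 34.5 to 120.4 RPM, and T3 2 and T3 3 lay above all of these.

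**Figure D4:**
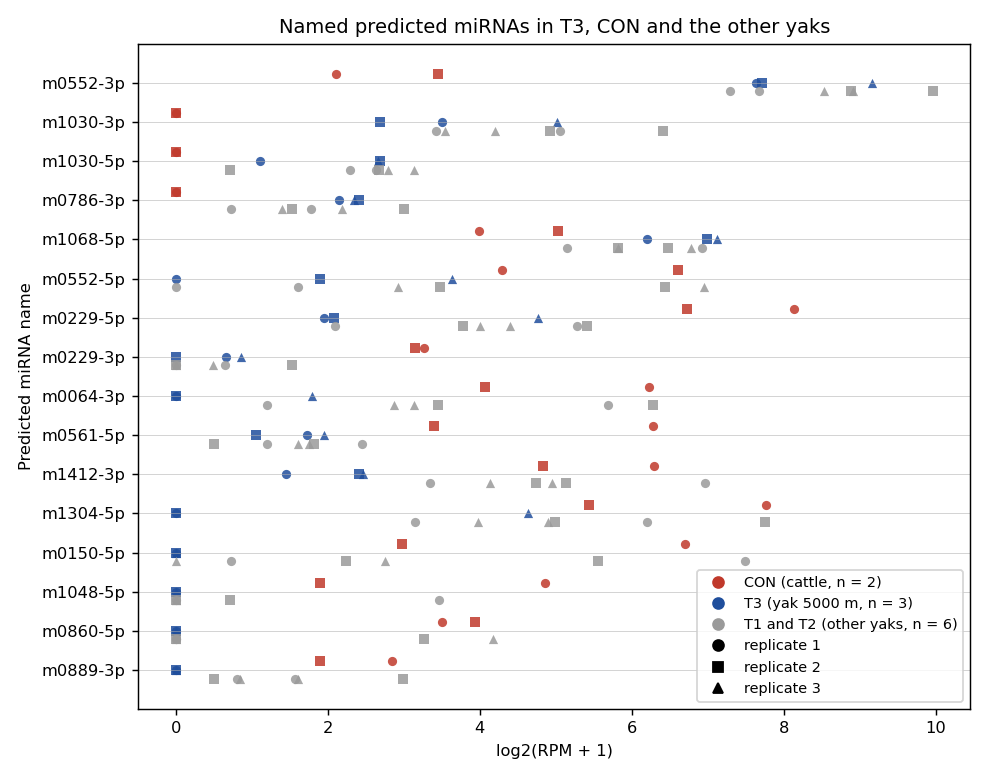
Level in each library (horizontal axis, log2 of RPM + 1) of predicted strands named in the text, with cattle in red, T3 in blue and the other yaks in grey, and a symbol for each replicate. For m0552-3p the cattle libraries lie far below all 9 yak libraries, and for m0150-5p and m1304-5p the other yaks spread over the range of cattle.

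On the lower side, the strand m0229-5p was at 281 and 105 RPM in cattle and 2.87, 3.24 and 26.2 RPM in T3. All T3 libraries were below cattle, with T3 3 the highest of them. Its log2 difference was -4.50 with a standard error of 1.11 and a limma adjusted p of 0.127. The partner m0229-3p was at 8.65 and 7.86 RPM in cattle and 0.573, 0 and 0.817 RPM in T3, a log2 difference of -2.70. It met the minimum mean over the 11 libraries only through cattle, so no p is given for m0229-3p. For the same reason the lower T3 values of m0229-3p are no support for the direction of m0229-5p. In T1 and T2 m0229-5p lay between 3.26 and 41.5 RPM. Its log2 difference from cattle was -4.14 in T1 and -2.40 in T2. T3 differed from the mean of T1 and T2 by -1.23 (limma adjusted p = 0.553).

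The strand m0064-3p was at 74.1 and 15.7 RPM in cattle and 0, 0 and 2.45 RPM in T3 (log2 -4.55, limma adjusted p = 0.127). The strand m0561-5p was at 76.6 and 9.56 RPM in cattle and 2.29, 1.08 and 2.86 RPM in T3, and its 6 values in the other yaks stayed at or below 4.45 RPM. The strand m1412-3p was at 77.0 and 27.3 RPM in cattle and 1.72, 4.33 and 4.50 RPM in T3. These 3 strands were low in every T3 library, T3 3 included. The limma adjusted p of m0561-5p and m1412-3p was 0.143.

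Other strands had no read in T3. The strand m0150-5p had 251 and 20 reads in cattle and 0 in each T3 library, at least 36.2-fold lower in T3 against a floor of 3 reads per library. That bound rested on CON 1, and it was 4.49-fold without CON 1 and 67.9-fold without CON 2. The strand m0860-5p had 25 and 42 reads in cattle, or 10.3 and 14.3 RPM, and 0 in T3, at least 8.09-fold lower. It was also at 0 in T1 1 and the 3 T2 libraries, and at 8.65 and 17.0 RPM in T1 2 and T1 3. The strand m1048-5p was at 28.0 and 2.73 RPM in cattle and 0 in T3, at least 10.1-fold lower, and m0889-3p was at 6.18 and 2.73 RPM and 0, at least 2.93-fold lower. Without CON 1 the bound was 1.79-fold for both m1048-5p and m0889-3p, and without CON 2 that of m1048-5p was 18.4-fold. The limma adjusted p of m0150-5p, m0860-5p and m0889-3p ranged from 0.127 to 0.223, and none of the 4 strands was called. The strand m1048-5p met the minimum mean over the 11 libraries only through cattle, so no p is given for m1048-5p. Without a filter on low names limma called m0150-5p and m0860-5p (adjusted p = 0.0187 each).

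The strand m1304-5p divided T3 itself. It was at 217 and 42.4 RPM in cattle, 0 RPM in T3 1 and T3 2, and 23.7 RPM in T3 3, with a log2 difference of -5.06 (standard error 1.48, limma adjusted p = 0.143). The largest negative difference of all 310 names was that of m0149-5p, which was picked out after its values were seen. Its level was 1144 and 144 RPM in cattle and 5.16, 5.41 and 33.9 RPM in T3, and it ranged from 4.56 to 4120 RPM in the other yaks. The log2 difference was -5.19 with a standard error of 1.91 and a limma adjusted p of 0.293. The cattle libraries themselves differed widely for m0149-5p and m1304-5p, with CON 1 above CON 2 in both.

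The number of calls differed between tools. On the whole reads recovered from the RPM values, edgeR called 2 names, m0552-3p (adjusted p = 0.0354) and m1030-3p (adjusted p = 0.0442). DESeq2, the tool of the study's methods, called 13 names, 7 higher and 6 lower in T3. The higher names were m0552-3p, m1030-3p, m1030-5p, m0786-3p, m1068-5p, m0036-5p and m0504-5p, and the lower ones m0150-5p, m0229-5p, m0064-3p, m0149-5p, m1412-3p and m0561-5p. The strand m0504-5p, noted after its values were seen, had 0 reads in cattle and 8.60, 3.78 and 0.409 RPM in T3. The strand m0036-5p was at 3.29 and 0 RPM in cattle and 48.2, 20.5 and 2.86 RPM in T3, so CON 1 lay above T3 3. Leaving out T3 3 raised the calls by limma from 1 to 5, with 1 higher and 4 lower. The 4 lower calls include the plant-prefixed bdi-miR159b-5p.2_R15-1L23, which met the minimum mean only through cattle, so its call is no support. Leaving out T3 1 or T3 2 gave 0 calls.

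Strands of the predicted class were more often lower than higher in T3. Of 255 tested, 87 were higher and 167 lower, 7 and 33 of them at an unadjusted p under 0.05 and at least 2-fold, and 1 was called. Their median difference was -0.86, beside -0.37 over all names. The median of the 145 predicted 5p strands was -0.75 and that of the 110 predicted 3p strands was -1.02. With RLE scaling the median of the predicted class was -0.34, and without CON 1 it was -0.37.

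Plant-prefixed names made up the rest of the tests. In plants these families control development, defence and copper use: miR166 acts on HD-ZIP III leaf polarity factors, miR396 on growth-regulating factors, miR159 on MYB factors, miR482 and miR2118 on disease resistance genes, miR397 on laccases and miR408 on copper proteins. How plant-prefixed reads came to be in bovine lung libraries was not tested. Of 55 tested names, 52 were higher and 3 lower in T3, 5 higher and 0 lower at an unadjusted p under 0.05 and at least 2-fold (3.87% of all names were higher by this rule), and 0 were called. Their median log2 difference was 1.56, beside -0.37 over all names, and 32 lay above both cattle libraries without overlap, beside 17.7% of all names. CON 1 decides much of this size, since without it the median fell to 0.45. Among the 5 past the unadjusted limit, ata-miR5168-3p, ppt-miR902f-3p_R15-1L20 and ath-miR5658_R1-19L21_8T-A met the minimum mean of 1 RPM only through their T3 reads.

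Family sums show the same dependence. The miR166 names summed to 3.29 RPM in CON 1 and 368 RPM in CON 2, and to 676, 536 and 414 RPM in T3. The miR396 names summed to 0 and 279 RPM in cattle and 519, 430 and 313 RPM in T3. The miR482 names summed to 0.412 and 284 RPM in cattle and 567, 395 and 338 RPM in T3. CON 1 was nearly without these families, with 26 reads over the 25 listed families against 3409 in CON 2. T3 lay above CON 2 as well in miR166, miR396 and miR482. In the other yaks miR166 was at 542, 578 and 411 RPM in T1 and 118, 0.629 and 596 RPM in T2. The high level was thus not particular to T3, and the near absence was not particular to cattle.

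Set against CON 2 alone, which allows no test of the group, 13 families were higher in all 3 T3 libraries. Over the 9 families with more than 10 RPM in T3, the median ratio of the T3 mean to CON 2 was 1.53. The makeup was close in T3 and CON 2: miR166 held 31.2% of the family reads in T3 and 31.6% in CON 2, and miR482 held 24.9% and 24.4%. The family miR159 was at 5.35 and 118 RPM in cattle and 186, 165 and 119 RPM in T3, so T3 3 was level with CON 2.

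**Figure D5:**
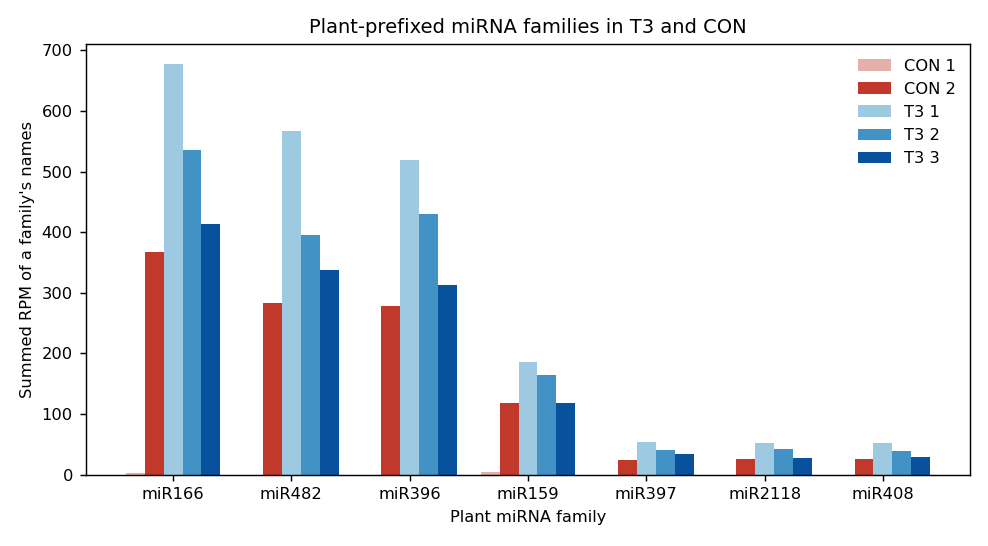
Summed RPM (vertical axis) of the names of the 7 most abundant plant miRNA families (horizontal axis) in each cattle and T3 library, 1 bar per library. CON 1 is at or near 0 in every family shown, and T3 1 is the highest library in each.

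The single plant-prefixed names most abundant in the 5 libraries followed these sums. The name ata-miR166d-3p_R1-20L21, from goatgrass, was at 1.24 and 194 RPM in cattle and 351, 268 and 216 RPM in T3. In contrast, gma-miR1520q_R22-8L24, from soybean, was at 270.2 and 107 RPM in cattle and 138, 126 and 113 RPM in T3, with T3 inside the range of cattle. The 9 miRNAs drawn in the study's networks are a list chosen on these samples and so not independent evidence of direction. Of the 9, 7 were tested and 0 were called. All 7 were higher in T3 without overlap, beside 17.7% of all names. Past the unadjusted limit were 3, ata-miR5168-3p, ppt-miR902f-3p_R15-1L20 and ath-miR5658_R1-19L21_8T-A, beside 3.87% of all names. Without their T3 reads these 3 would average under 1 RPM, so the filter kept them through T3 and their passing is no support. Of the 2 too low to be tested, ptc-miR6471_R18-4L21 was lower in T3 without overlap (2.47 and 1.37 RPM in cattle and 1.15, 0 and 0 RPM in T3), and pab-miR396a overlapped. The names ata-miR5168-3p and ppt-miR902f-3p_R15-1L20 had 0 reads in cattle and between 2.45 and 3.44 RPM in each T3 library, 5 to 7 reads each.

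A low plant-prefixed name went the other way. The name bdi-miR159b-5p.2_R15-1L23, from the grass Brachypodium, had 13 and 14 reads in CON 1 and CON 2, or 5.35 and 4.78 RPM. It had 0 reads in the 3 T3 libraries and in the 6 other yak libraries, and was at least 3.33-fold lower in T3 against a floor of 3 reads per library. It lay below the minimum mean over the 11 libraries and was not in the main test. It passes a minimum over the 5 libraries only through the cattle libraries, so no test is given. This name supplied all 13 of the miR159 reads in CON 1, among the 26 family reads of that library. Together with m0150-5p and m0860-5p it made up the 3 names with at least 10 reads in both cattle libraries and 0 in all of T3.

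Detection of names was spread thinly over the libraries. With at least 1 read, 364 names were found in both groups, 311 in T3 alone and 191 in CON alone, and at a minimum of 10 reads these numbers were 207, 34 and 36. Of the names in T3 alone, 8 were found in all 3 T3 libraries, and of those in CON alone, 20 were found in both. Any pair among the 5 libraries held between 171 and 205 names that the other 3 lacked, a range that includes the 191 of the cattle pair.

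T3 was then set against the mean of T1 and T2 to see whether the names above differed among yaks. By limma 0 of 310 names were called, 0%, and 23 (7.42%) passed at an unadjusted p under 0.05 and at least 2-fold, 3 higher and 20 lower in T3. The smallest adjusted p was 0.403. On the recovered reads edgeR called 0, with 5 higher and 13 lower at an unadjusted p under 0.05 and at least 2-fold. DESeq2 called 2, both lower in T3: m0150-5p (log2 -6.27) and m1412-3p (log2 -2.88), each at an adjusted p of 0.0342.

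The strand m1412-3p was the clearest of these in its values. It was between 1.72 and 4.50 RPM in T3 and between 9.11 and 124 RPM in the other yaks, with no overlap. The share of all names without overlap between T3 and the other yaks is not given here. The limma difference of m1412-3p was -2.77 at an unadjusted p of 0.00393 and an adjusted p of 0.403. Its differences from cattle were -3.45 in T3, -1.35 in T1 and -0.0015 in T2, all against the same cattle libraries. The strand m0064-3p was between 0 and 2.45 RPM in T3 and between 1.30 and 76.8 RPM in the other yaks, with overlap, at a limma difference of -3.17 and an adjusted p of 0.403. For m1304-5p the differences from cattle were -5.06 in T3, -2.26 in T1 and -0.63 in T2. For m1412-3p and m1304-5p the order was not that of altitude, since T2, the higher site, lay nearer to cattle than T1. The differences of the called m0552-3p lay close together, at 5.39 in T3, 5.71 in T1 and 5.82 in T2, each with a standard error of 0.97.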

How the data were processed

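Small RNA was sequenced by the authors from tissue labelled lung, although the extraction text of the labels speaks of retinas. Per the study's methods, other RNA classes were removed with Rfam, known miRNAs were named against miRBase, and others were placed on the reference genome with Bowtie2 and predicted with MIREAP, with versions not given in the sources used here. The only reference genome named in the methods is a yak (Bos mutus) assembly, for cattle reads as well. Its effect on the levels in cattle was not tested. The authors deposited RPM values for each library. Dividing a column by its smallest value above 0 gave whole reads for 100% of 4651 values (tolerance 0.01). These totals cover only reads assigned to listed names.

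limma 3.58.1 (R 4.3.3) was run on log2(RPM + 1) of 11 libraries with a mean per group and a variance trend, with Benjamini-Hochberg adjustment. Arm ratios were fitted likewise with 1 RPM added to each arm. edgeR 4.0.16 and DESeq2 1.42.0 were run on recovered reads. Named miRNAs were the calls, the 10 smallest p in each direction without overlap, the 10 most abundant, their other arms, names with at least 10 reads in 1 group and 0 in the other, network miRNAs, leading arm ratios and the 5 most abundant plant names. Members and lists were chosen with earlier results of these data known. The scripts were tested on simulated data. The interval of a log2 difference is that of the limma fit and covers the spread between libraries, and the floors of 3 reads cover counting error only. Sequences were not used here, so reads shared between near-identical precursors could not be checked. Library comparisons by chi-square gave no sign of a duplicate.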

Additional observations from a re-analysis of the deposited data

How the results depend on the processing

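The number of names called between T3 and CON was 1, and 12 higher and 33 lower names (45) passed without adjustment. It was 13 with DESeq2, 2 with edgeR, 2 with a pseudocount of 0.1, 2 with a pseudocount of 10, 9 without a filter and 2 with the minimum over the 5 libraries, which bdi-miR159b-5p.2_R15-1L23 passed only through cattle. It was 0 with 10 reads required in each of the 5 libraries, 0 with the 5 libraries alone and 0 when both libraries with few plant-prefixed names were left out, an alternative chosen after seeing the data. Leaving out each library in turn gave 0 to 5 calls. Without m1080-5p in the totals 1 name was called, bdi-miR159b-5p.2_R15-1L23, and m0552-3p was not. There too bdi-miR159b-5p.2_R15-1L23 met the minimum only through cattle. For arm ratios the 3 calls became 5 with a pseudocount of 0.1, 1 with a pseudocount of 10, 1 with the 5 libraries alone and 0 to 11 with each library left out. The replicate block gave 1 name and 9 arm ratios. Replicate numbers were not used to pair the animals in the main fit. Correlations of same-numbered deviations ran from -0.82 to 0.61, and whether same-numbered libraries share anything was not tested. The causes were not tested. Over the 48 named and tested miRNAs, 863 alternative results stayed as they were in direction and call, 6 lost a call, 22 gained one and 15 changed sign, none of these with a call. The log2 difference of m1358-5p (main value -0.46) became 0.20 with DESeq2, 0.17 with RLE and 0.15 with TMM scaling. That of m0064-5p (-0.53) became 0.15, 0.10 and 0.083 in these, 0.044 with a term for few plant names and 0.22 without the libraries with few plant-prefixed names, and ran from -1.28 to 0.22 with each library left out. That of gma-miR1520q_R22-8L24 (-0.44) became 0.24, 0.18, 0.17, 0.47 and 0.22 in the same order, and ran from -1.10 to 0.22.

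Medians moved for the plant lists. Leaving out CON 1 alone gave 0.45 over all plant names, and leaving out both libraries with few plant-prefixed names also gave 0.45. The conserved families moved from 1.65 to 0.53, the network miRNAs to 0.76, and names with rising positions from 1.66 to 0.44, or to 0.58 with a term for few plant names. Those with falling positions moved from 0.61 to -0.84 without m1080-5p in the totals. Names detected in T3 alone, names detected in CON alone and names detected in both came to 311, 191 and 364 at a minimum of 1 read and to 34, 36 and 207 at a minimum of 10 reads. At the minimum of 1 read, leaving out single libraries gave 210 to 408, 101 to 244 and 267 to 348. With 3 against 2 animals and 10 assignments, only large differences can be called.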
